A study of Mus musculus with 12 samples.

Results

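Annexins are proteins that bind membrane phospholipids in the presence of calcium, and Ahnak is a giant scaffold protein that joins the complex of annexin A2 and S100a10 at the plasma membrane. The genes described are Ahnak, its paralog Ahnak2 and 8 annexin genes (Anxa1, Anxa2, Anxa3, Anxa4, Anxa5, Anxa6, Anxa7 and Anxa11). They were found by their symbols among the 55471 genes of the count table, which held all 10 of them. RNA-seq was done on wild-type primary mouse hippocampal cultures, which were grown from mixed-sex CD1 mouse embryos at E17 after the meninges had been taken off and which were labelled as neurons. The cultures received control gapmers or gapmers against the lncRNA *Neuid* (Gm10419) at DIV 7, and RNA was collected at DIV 10, with 6 libraries per group. Gapmers are short antisense oligonucleotides that direct RNase H to cut the RNA they pair with. In *Neuid* KD libraries Ahnak transcripts were at 30.9% of the control level and Anxa2 transcripts at 155%, and these were the only members for which the 6 control and the 6 *Neuid* KD libraries did not overlap. Among the 19578 genes that passed a filter on low counts, the groups did not overlap for 5.7%. The 10 genes described were chosen by family, with the fold changes and CPM of this same contrast already known. Their differences between the groups are therefore a description and carry no test, and the thresholds used below only sort them.

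Annexins share a core of repeats that holds calcium against the membrane surface, and they are known for membrane repair, endocytosis, exocytosis and the binding of phosphatidylserine that a cell exposes. Annexin A2 forms a heterotetramer with S100a10 (also called p11), which recruits ion channels and plasminogen to the cell surface and which Ahnak anchors to the actin cortex. Ahnak also binds the beta subunits of L-type calcium channels, and in brain it has been studied in endothelial cells, in glia and, together with p11, in neurons.

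Ahnak (ENSMUSG00000069833) lies on the plus strand at chr19:8989284-9076914 of GRCm38 (mm10), and its merged exons measure 19938 bases. Anxa2 (ENSMUSG00000032231) lies on the plus strand at chr9:69453620-69491795, with 3731 bases of exons. The promoters of these genes, taken from RefSeq on GRCm38.p6, are shown because they belong to the members that passed the thresholds for a change, in opposite directions, although the RNA counts say nothing about the promoters themselves. A promoter window was found for 8 of the 10 members. The Ahnak stretch is the whole window of 250 bases before the RefSeq start, at chr19:8989034-8989283, and the Anxa2 stretch, at chr9:69453433-69453619, leaves out the last 63 bases of its window, which the GENCODE annotation places in an exon. Both read 5′ to 3′ on the plus strand, and capitals mark matches of 5 motifs on either strand.
Ahnak: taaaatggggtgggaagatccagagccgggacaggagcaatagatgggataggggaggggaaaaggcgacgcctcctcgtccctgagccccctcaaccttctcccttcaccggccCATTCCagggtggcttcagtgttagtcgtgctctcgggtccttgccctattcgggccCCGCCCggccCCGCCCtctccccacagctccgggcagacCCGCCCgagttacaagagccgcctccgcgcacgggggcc
Anxa2: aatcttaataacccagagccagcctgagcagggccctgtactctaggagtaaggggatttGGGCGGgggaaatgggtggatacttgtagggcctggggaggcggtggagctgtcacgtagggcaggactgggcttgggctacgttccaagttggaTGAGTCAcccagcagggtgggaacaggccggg
The motifs searched were the TATA box (TATAAA), the CCAAT box (CCAAT), the GC box (GGGCGG), an AP-1 site (TGANTCA) and a TEAD site (GGAATG), and none of the matches shown overlaps another. The Ahnak window held 3 GC boxes and 1 TEAD site, with a GC content of 66.4% and 18 CpG. The whole Anxa2 window held 3 GC boxes, 1 AP-1 site and 1 TATA box, with a GC content of 62.4% and 9 CpG. Across 32851 windows of 250 bases in the same table, 32.7% held a GC box, 12.6% a TEAD site, 6.75% an AP-1 site and 12.4% a TATA box, and the median GC content was 52.4%. A match of letters is not a site of binding.

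The libraries held between 18002585 and 30914714 counted reads in control and between 11152556 and 30573480 in *Neuid* KD. *Neuid* itself was at 25.97 CPM or more in every control library and at 9.55 CPM or less in every *Neuid* KD library, where CPM are counts divided by library size and scaled with the TMM method (log2 fold change -1.81, edgeR adjusted p = 1.3e-10, exact permutation test, two-sided p = 0.002165, which is the smallest that 6 against 6 libraries allow). Exons of *Neuid* overlap those of the protein-coding gene Gm42517 on the opposite strand, so its counts may hold reads of that gene. Reads on 2012 genes for olfactory, vomeronasal and taste receptors were used as a measure of background reads. Their sum lay between 26.7 and 667 CPM in control and between 27.1 and 616 CPM after *Neuid* KD, and 7 of the 12 libraries (4 control and 3 *Neuid* KD) had at least 100 CPM. Of the 19578 genes that passed a filter on low counts, 477 were higher and 155 lower in *Neuid* KD. The thresholds, here and for every gene said to have passed, were 0.05 for the adjusted p and 0.5 for the size of the log2 fold change. With upper-quartile scaling in place of TMM, 389 were higher and 218 lower.

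Per length of transcript, the annexin genes covered a wide range of levels in control cultures. Anxa6, an annexin with a doubled core that is abundant at the plasma membrane and on endosomes, stood highest at 19.5 ± 0.785 CPM per kilobase of exons (SD, n = 6). Anxa7, which takes part in the fusion of secretory vesicles, followed at 6.38 ± 0.611 CPM per kilobase. Anxa5, the protein used in the laboratory to stain exposed phosphatidylserine, was at 3.73 ± 0.407 CPM per kilobase, and Anxa2 was at 2.61 ± 0.335 CPM per kilobase (SD, n = 6 for each).
The ranges of these 4 genes over the 6 control libraries did not overlap with their neighbours in the order, and Anxa2 did not overlap with Ahnak, which was the fifth at 0.951 ± 0.176 CPM per kilobase (SD, n = 6). Below Ahnak came Ahnak2, Anxa3, Anxa4, Anxa11 and Anxa1, with means from 0.565 down to 0.138 CPM per kilobase. Each of these overlapped with the next in the order, so that their order could not be told within the spread of the libraries. The control range of Ahnak also overlapped with that of Ahnak2.
In *Neuid* KD libraries, the level of Anxa2 per kilobase was 4.06 ± 0.475 and that of Anxa5 was 4.03 ± 0.552 (SD, n = 6), so that these genes changed places with overlapping ranges. Ahnak, at 0.294 ± 0.108 CPM per kilobase (SD, n = 6), had the fifth mean in control and the seventh in *Neuid* KD, where its range overlapped those of Ahnak2, Anxa3, Anxa4 and Anxa11.

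**Figure D1:**
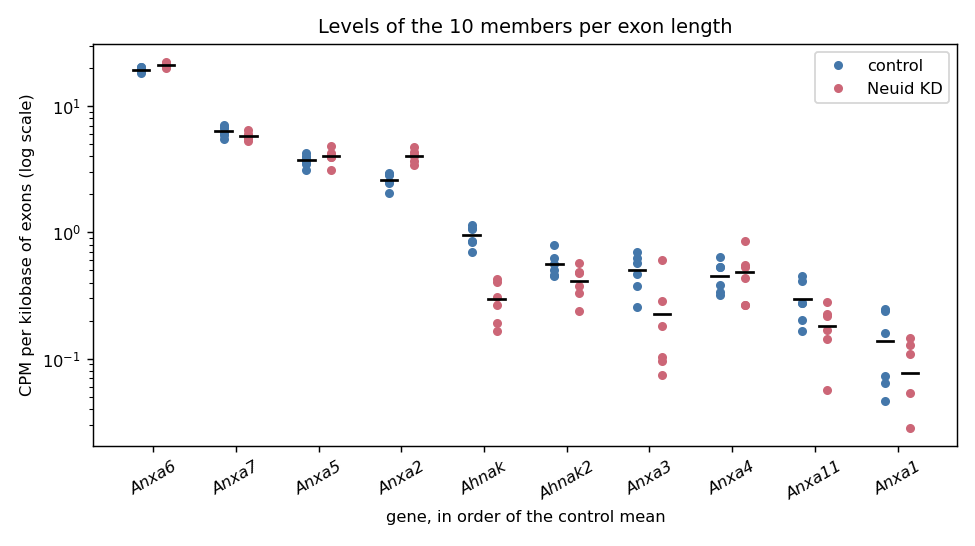
CPM per kilobase of merged exons (log scale) of the 10 members in control (blue) and *Neuid* KD (red) libraries, with 1 point per library and a black line at the mean of 6 libraries. Anxa6 stood highest in every library, the Anxa2 points moved up to those of Anxa5, and the Ahnak points moved down among those of the weakly detected members (1 *Neuid* KD library with no Anxa1 read is not drawn).

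Ahnak transcripts were lower in every *Neuid* KD library than in any control library. The level in control libraries ran from 13.9 CPM, with a median of 19.2, to 22.9, and in *Neuid* KD libraries from 3.29 CPM, with a median of 5.74, to 8.5. The groups were therefore separated by a gap, with control replicate 3 the lowest control library and *Neuid* KD replicates 1 and 5 the highest *Neuid* KD libraries. The mean fell from 19.0 ± 3.50 to 5.86 ± 2.16 CPM (SD, n = 6), which gave a log2 fold change of -1.73 (standard error 0.193). Between 365 and 470 reads lay on Ahnak in a control library, and between 81 and 197 in a *Neuid* KD library. The center of the Ahnak protein is built of repeats that resemble each other, and how reads with several matches were counted is not given in the sources used here. In cultures sequenced in bulk, fewer cells of a type and less RNA per cell cannot be told apart.
Ahnak levels differed with the background reads within each group as well. In control, replicates 3 and 5, which had under 100 CPM of background, had the lowest Ahnak levels (13.9 and 16.9 CPM). Control replicate 2, with 419.6 CPM of background, was close to replicate 5 at 17.1 CPM. Control replicate 6, with 183 CPM of background, was at 21.25 CPM, so the order in control was not strict. In *Neuid* KD the 3 libraries under 100 CPM of background were at 3.29, 3.79 and 5.32 CPM, below the 6.17 to 8.5 CPM of the other 3. The read density of the receptor genes times the exon length of Ahnak came to between 0.0883 and 2.2 CPM in control and between 0.0895 and 2.04 CPM in *Neuid* KD. With this amount taken off each library, Ahnak had 17.9 ± 2.87 CPM in control and, after *Neuid* KD, 5.09 ± 1.54 CPM (SD, n = 6). In the libraries at or above 100 CPM of background its log2 fold change was -1.45, and in those below it was -1.92.

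Ahnak2, a shorter paralog of Ahnak with the same kind of repeats, did not pass the thresholds. Control libraries ran from 6.34 CPM, with a median of 7.58, to 11.2, and *Neuid* KD libraries from 3.38 CPM, with a median of 6.07, to 8.12. The groups overlapped, with 3 *Neuid* KD libraries below every control library, and the log2 fold change was -0.45 with a standard error of 0.187.
Within a library, the level of Ahnak per kilobase was 1.72 ± 0.299 times that of Ahnak2 in control and 0.724 ± 0.239 times in *Neuid* KD (SD, n = 6). The ratio was between 1.37 and 2.10 in control and between 0.495 and 1.12 in *Neuid* KD, without overlap.

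Anxa2 transcripts were higher in every *Neuid* KD library than in any control library. Levels in control libraries ran from 7.72 CPM, with a median of 9.96, to 10.9, and in *Neuid* KD libraries from 12.8 CPM, with a median of 15.1, to 17.9. Control replicate 5 was the lowest and *Neuid* KD replicate 1 the highest of the 12 libraries. The mean rose from 9.75 ± 1.25 to 15.1 ± 1.77 CPM (SD, n = 6), a log2 fold change of 0.63 with a standard error of 0.0926. It was 0.55 in the libraries at or above 100 CPM of background and 0.79 in those below. The antisense gene Gm16144 overlaps exons of Anxa2, and as the strand setting of the counting is not given in the sources used here, reads of the 2 genes cannot be told apart.
Its partner S100a10, which was not among the genes chosen, had overlapping groups. It ran from 8.76 to 11.8 CPM in control and from 8.53 to 11.7 CPM in *Neuid* KD (log2 fold change -0.06, standard error 0.0963, edgeR adjusted p = 0.85). Per kilobase and within a library, Anxa2 was at 0.311 ± 0.0764 times the level of S100a10 in control and at 0.494 ± 0.0659 times in *Neuid* KD (SD, n = 6). Ahnak was at 0.366 ± 0.0601 times the level of Anxa2 in control, and this ratio was 0.0720 ± 0.0238 in *Neuid* KD (SD, n = 6), with ranges of 0.286 to 0.437 and 0.0447 to 0.0994. These ratios follow from the lower Ahnak and the higher Anxa2 already described and are not a further result.

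**Figure D2:**
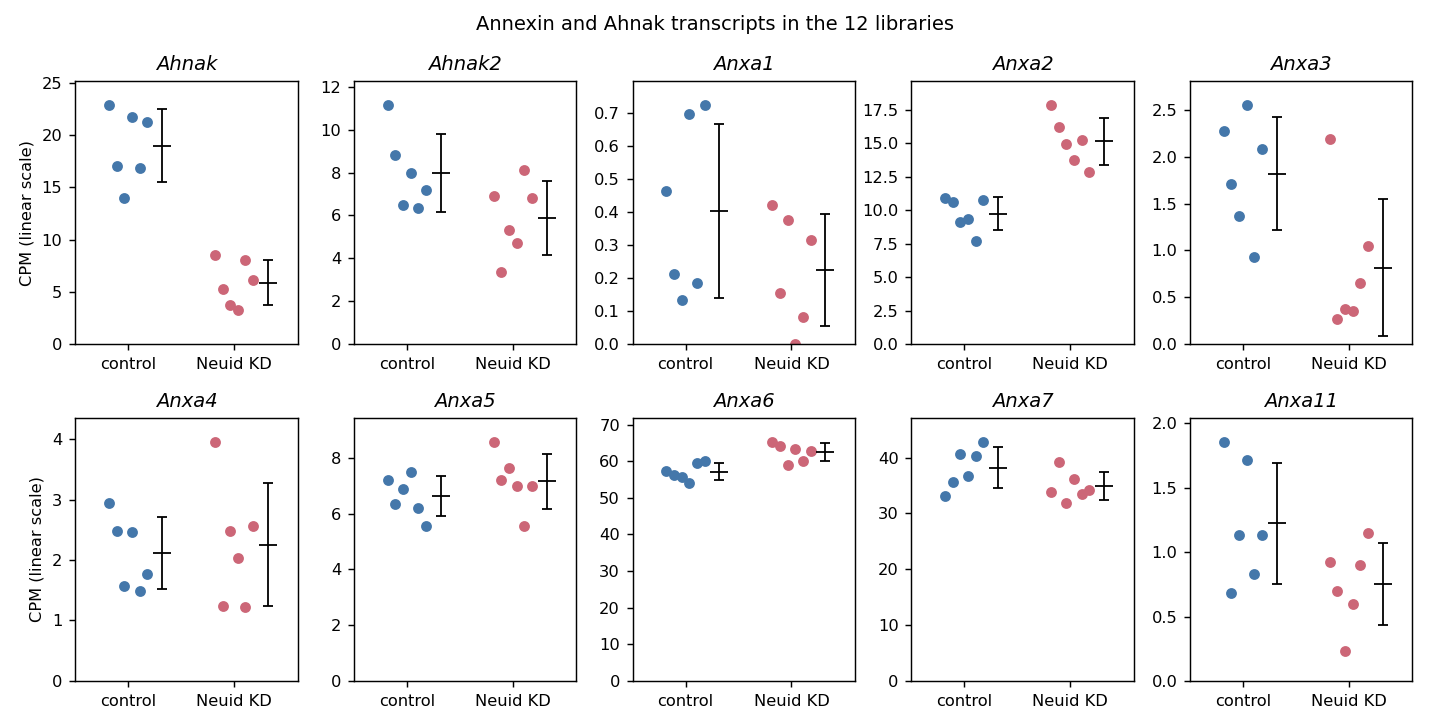
CPM (linear scale, from 0) of each member in the 6 control (blue) and 6 *Neuid* KD (red) libraries, in order of replicate number from left to right, with the mean and SD of each group as a black line and bar. Ahnak fell from 19.0 to 5.86 CPM and Anxa2 rose from 9.75 to 15.1 CPM without overlap of the groups, while the groups of the other 8 genes overlapped.

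The other annexins had overlapping groups. Anxa6 ran from 53.95 CPM, with a median of 56.8, to 59.99 in control and from 59.05 CPM, with a median of 63.05, to 65.3 in *Neuid* KD. In 5 *Neuid* KD libraries Anxa6 was above every control library, and replicate 3 lay inside the control range. The log2 fold change was 0.13 with a standard error of 0.0448, the smallest error among the members, and between 776 and 1809 reads lay on the gene in each library.
Anxa5 ran from 5.56 CPM, with a median of 6.63, to 7.51 in control and from 5.58 CPM, with a median of 7.11, to 8.59 in *Neuid* KD. Most *Neuid* KD libraries lay inside the control range, and the log2 fold change was 0.10 with a standard error of 0.105.
Anxa7 ran from 33.1 CPM, with a median of 38.5, to 42.9 in control and from 31.96 CPM, with a median of 34.1, to 39.1 in *Neuid* KD. Only replicate 3 of *Neuid* KD was below every control library, and the log2 fold change was -0.13 with a standard error of 0.0666.

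Anxa4, an annexin of epithelial and secretory cells, ran from 1.48 CPM, with a median of 2.11, to 2.94 in control and from 1.23 CPM, with a median of 2.25, to 3.96 in *Neuid* KD. The *Neuid* KD libraries lay on both sides of the control range, and the log2 fold change was 0.07 with a standard error of 0.295. Its sign turned in 3 of 22 other ways of processing the counts.
Anxa11, which binds RNA granules and ties them to lysosomes, ran from 0.683 CPM, with a median of 1.13, to 1.86 in control and from 0.234 CPM, with a median of 0.800, to 1.15 in *Neuid* KD. The groups overlapped in 4 *Neuid* KD libraries, and the log2 fold change was -0.71 with a standard error of 0.414. Only 5 to 37 reads lay on Anxa11 in a library, and its exons overlap the antisense gene Anxa11os. Exons of Anxa4 likewise overlap Gm44036 on the opposite strand, so that the counts of these genes may hold reads of their neighbours.
Anxa1, the glucocorticoid-regulated annexin that dampens inflammation, had between 0 and 16 reads per library and did not pass the filter on low counts. Its level was between 0.133 and 0.723 CPM in control and between 0 and 0.421 CPM in *Neuid* KD, and a difference was not detectable at this depth. In the library without a read, *Neuid* KD replicate 4, a count of 0 allows up to 3 reads.

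Anxa3 was the member whose value depended most on the libraries and the method. Control libraries ran from 0.925 CPM, with a median of 1.89, to 2.55, and *Neuid* KD libraries from 0.272 CPM, with a median of 0.515, to 2.19. Replicate 1 of *Neuid* KD, at 2.19 CPM, lay among the control libraries, and 4 of the other *Neuid* KD libraries were below every control library. The log2 fold change was -1.21 with a standard error of 0.478 and did not pass the thresholds. It was -1.80 without *Neuid* KD replicate 1, the library with the fewest reads and the highest background of its group, and the gene then passed them.
In the libraries at or above 100 CPM of background the value was -0.78, and in those below, where Anxa3 passed the thresholds, it was -1.82. Between 20 and 55 reads lay on Anxa3 in a control library and between 7 and 26 in a *Neuid* KD library, and its exons overlap those of Gm42603 on the same strand.

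**Figure D3:**
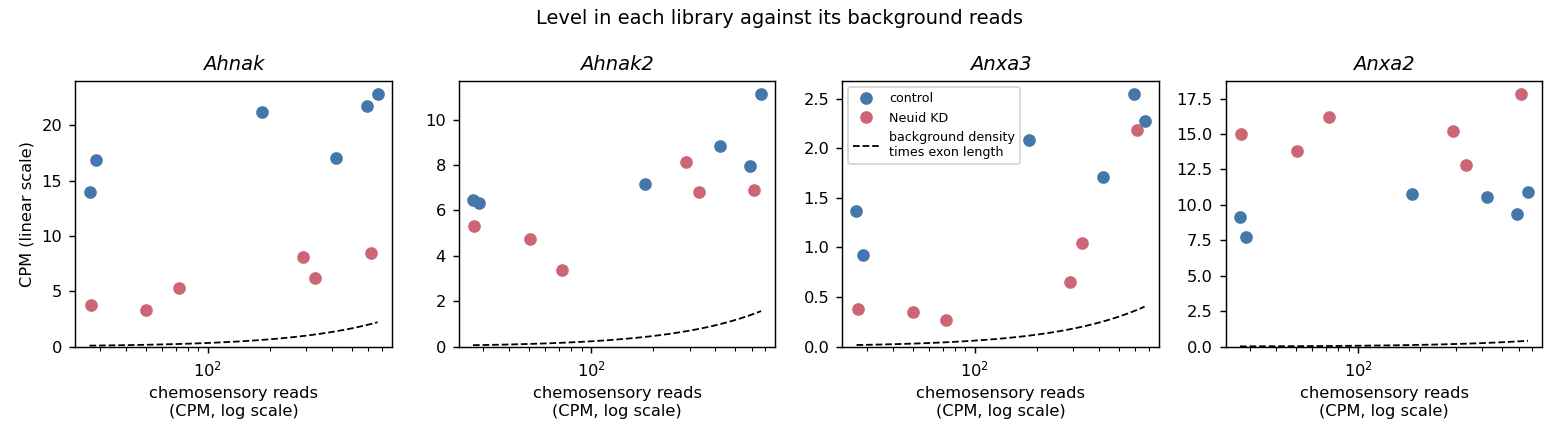
CPM (linear scale, from 0) of Ahnak, Ahnak2, Anxa3 and Anxa2 in each library against the CPM on 2012 chemosensory receptor genes (log scale), with control in blue and *Neuid* KD in red, and the read density of those genes times the exon length of the gene as a dashed line. Ahnak, Ahnak2 and Anxa3 tended to be higher in libraries with more background reads, and the *Neuid* KD points of Ahnak and Anxa2 stayed apart from the control points at either end.

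Among the 10 members, 1 (Anxa2) passed the thresholds as higher and 1 (Ahnak) as lower in *Neuid* KD. Over all tested genes, 2.44% passed as higher, 0.792% as lower and 3.23% in either direction. The groups did not overlap for these 2 of the 10 members and for 5.7% of all tested genes (4.13% with *Neuid* KD above and 1.57% with *Neuid* KD below). The 9 members that passed the filter had a median log2 fold change of -0.13, with 4 above 0 and 5 below. Over all tested genes the median was -0.03, and 44.4% were above 0. As the same contrast was in view when the genes were chosen, nothing is read from these shares.

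**Figure D4:**
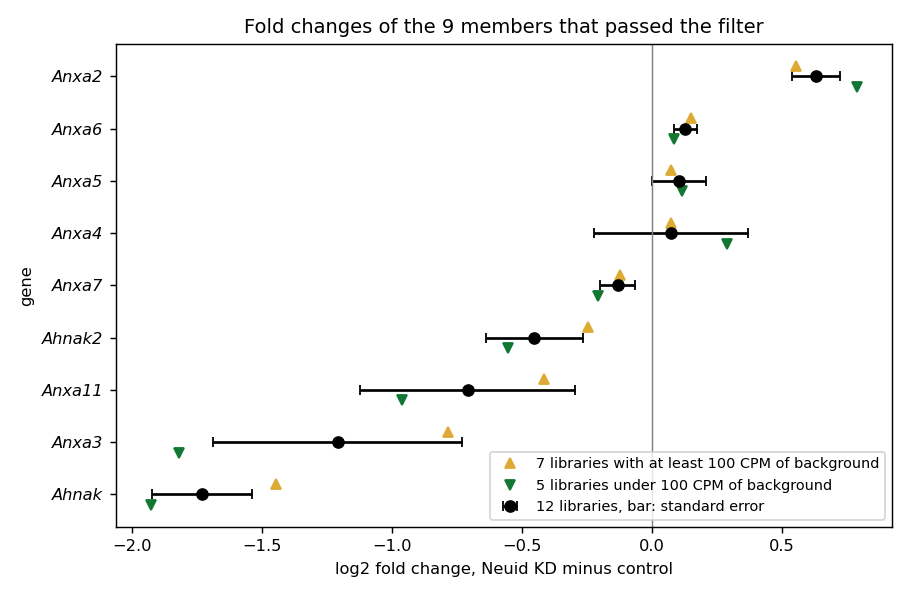
Log2 fold change (*Neuid* KD minus control) of the 9 members that passed the filter on low counts, with the standard error as a bar (black, 12 libraries) and the values within the 7 libraries with at least 100 CPM of background (yellow, upward) and the 5 libraries under it (green, downward). Ahnak stayed between -1.92 and -1.45 and Anxa2 between 0.55 and 0.79 within these libraries, whereas Anxa3 ran from -1.82 to -0.78.

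Other genes of the pathways around annexins and Ahnak were taken from 7 lists of 66 genes. Of the 56 that were tested, 6 (10.7%) passed the thresholds as higher in *Neuid* KD and 3 (5.36%) as lower, where the shares over all tested genes were 2.44% and 0.792%. As the lists were chosen with earlier results of these data known, nothing is read from these shares. The median log2 fold change over these 56 genes was -0.01. All p-values given for these genes come from edgeR's quasi-likelihood test with Benjamini-Hochberg adjustment over all tested genes. They do not account for that choice of lists, so they describe the genes and are not independent evidence of a change.

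Among the S100 and EF-hand proteins that bind annexins or Ahnak, 1 of the 7 tested genes passed. S100b, a calcium sensor that binds annexin A6 and Ahnak and is made in brain chiefly by astrocytes, was between 1.11 and 2.51 CPM in control and between 9.16 and 12.3 CPM in *Neuid* KD. This was 6.23-fold higher, without overlap (log2 fold change 2.64, standard error 0.160, adjusted p = 3.1e-09). The others had log2 fold changes between -0.17 (S100a6) and 0.07 (Pef1), with S100a1 at -0.06.
Of the 7 genes for calcium channel subunits and PDZ partners of Ahnak, Cacna1c, the pore of an L-type channel, was the only gene past the thresholds. It went from 142 ± 10.4 to 200.5 ± 26.9 CPM (SD, n = 6), a log2 fold change of 0.50, at the edge of the threshold (adjusted p = 0.00051), and in 16 of 21 other ways of processing it fell short, with log2 fold changes between 0.44 and 0.54 over the 21. Among the 16 were the fits without control replicate 1, 4 or 6 and without any of *Neuid* KD replicates 2 to 6. The genes for beta subunits were among those that did not pass. The largest absolute log2 fold changes among them were those of Cacnb4 (-0.17) and Cacnb1 (-0.06). Periaxin (Prx), the PDZ protein related to Ahnak, was at -0.47.

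Genes around the plasminogen function of annexin A2 and S100a10 included Serpine2, an inhibitor of serine proteases that is secreted by glia. It was between 51.4 and 70.95 CPM in control and between 179 and 208 CPM in *Neuid* KD, 3.03-fold higher without overlap (log2 fold change 1.59, standard error 0.0720, adjusted p = 9.0e-11). It was the only gene of the 7 tested that passed. The plasminogen activator Plau (log2 fold change -0.69, standard error 0.630) and plasminogen itself (Plg, -0.41, standard error 0.729) were under 2 CPM on average in both groups. The error was close to the difference for Plau and larger than it for Plg.

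In the plasma membrane repair list, 3 of 17 tested genes passed, each as lower. Cav1, the coat protein of caveolae, was between 9.19 and 13.3 CPM in control and between 5.64 and 6.69 CPM in *Neuid* KD, without overlap (log2 fold change -0.84, standard error 0.0967, adjusted p = 1.0e-05). Cavin1, which stabilizes the caveolar coat, went from 6.13 ± 1.28 to 3.83 ± 0.962 CPM (SD, n = 6), with overlapping groups (log2 fold change -0.69, adjusted p = 0.014, and 0.071 in the libraries at or above 100 CPM of background). Capn1, the large subunit of a calpain protease, went from 5.71 ± 0.793 to 3.92 ± 0.932 CPM (SD, n = 6; log2 fold change -0.54, adjusted p = 0.045).
The call of Capn1 was lost in 13 of 21 other ways of processing, among them leaving out each control library in turn or *Neuid* KD replicate 2, 3 or 6, with adjusted p up to 0.10 in those. Myof, a ferlin that patches membranes, did not pass (log2 fold change -0.80, standard error 0.265, adjusted p = 0.078), but it did so without *Neuid* KD replicate 1 (log2 fold change -1.04, adjusted p = 0.0097), without control replicate 3 (adjusted p = 0.034) or 5 (adjusted p = 0.044), and in 4 other ways of processing. The genes of the ESCRT machinery were not among those past the thresholds, although Chmp4b, named here after its values were seen, missed only the fold threshold (log2 fold change 0.21, adjusted p = 0.019) and its groups did not overlap.

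In the list on scrambling, flipping and reading phosphatidylserine, the lipid to which annexins bind, 3 of 16 tested genes passed, each as higher. Mfge8, a secreted bridge between the lipid and integrins, was between 98.2 and 127 CPM in control and between 435 and 500.2 CPM in *Neuid* KD, 4.25-fold higher (log2 fold change 2.09, standard error 0.0699, adjusted p = 2.4e-12). Mertk, a receptor kinase for the clearance of dying cells and synapses, was between 1.43 and 3.66 CPM in control and between 7.46 and 10.2 CPM in *Neuid* KD (log2 fold change 1.76, standard error 0.186, adjusted p = 3.9e-06). Axl, a receptor kinase of the same family, was between 8.36 and 12.7 CPM in control and between 21.98 and 24.7 CPM in *Neuid* KD (log2 fold change 1.20, standard error 0.0837, adjusted p = 2.1e-08).
For all 3 genes the groups did not overlap. Among the genes that move the lipid across the membrane, the flippase Atp11b had the largest absolute log2 fold change, at -0.36 (adjusted p = 0.0038), which was under the fold threshold. The list of other annexin genes had only Anxa9 past the filter (log2 fold change -0.03), and Anxa8, Anxa10 and Anxa13 were not tested. Likewise, in the list of annexin A1 receptors and cytosolic phospholipase A2, only the gene of the phospholipase, Pla2g4a (log2 fold change -0.13), was tested. The formyl peptide receptors Fpr1, Fpr2 and Fpr3 had too few reads.

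**Figure D5:**
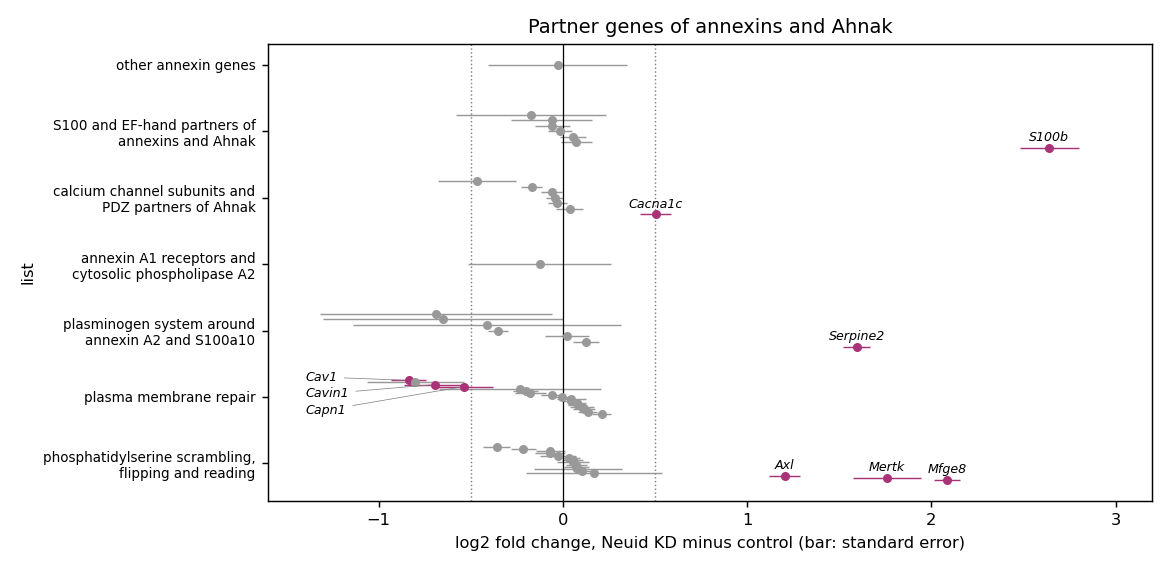
Log2 fold change (*Neuid* KD minus control, with the standard error as a bar) of the 56 tested genes in 7 lists around annexins and Ahnak, with genes past the thresholds in purple and named, and dotted lines at -0.5 and 0.5. S100b (2.64), Mfge8 (2.09), Mertk (1.76), Serpine2 (1.59) and Axl (1.20) stood apart from the rest of their lists, and Cav1, Cavin1 and Capn1 lay below -0.5.

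Markers of cell types moved with some of these genes, and their part in the results was not tested. The 10 neuronal markers were all tested and summed to between 6611 and 7697 CPM in control and between 6533 and 7705 CPM in *Neuid* KD, and none of them passed the thresholds. Beside the higher Anxa2, S100b, Serpine2, Mfge8, Mertk and Axl stood the 10 astrocyte markers, of which 8 passed as higher, with sums from 1816 to 2290 CPM in control and from 3564 to 4261 CPM in *Neuid* KD. The 7 markers of oligodendrocyte precursors, of which 2 passed as higher, summed to between 97.0 and 115 CPM in control and between 248 and 293 CPM in *Neuid* KD. Of these 7, 5 had a log2 fold change above 0 and 2 below. Gpr17 and C1ql1 were under 1 CPM on average, and Gpr17 had no read in some libraries.
Beside the lower Ahnak, Cav1 and Cavin1 stood 12 markers of fibroblasts and meningeal cells, which summed to between 96.9 and 136 CPM in control and between 79.2 and 94.4 CPM in *Neuid* KD, without overlap. Of their 9 tested genes, 7 had a log2 fold change below 0 and none passed, and Igf2 and Ogn had no read in some libraries. The 10 endothelial markers summed to between 7.40 and 33.3 CPM in control and between 7.49 and 29.2 CPM in *Neuid* KD, all 7 tested had a log2 fold change below 0 and none passed, and Cdh5, Cldn5, Tek, Tie1 and Emcn had no read in some libraries. The read density of the receptor genes times the exon length of the endothelial markers came to between 0.318 and 7.95 CPM in control libraries.
For mural cells, 8 markers summed to between 18.9 and 33.7 CPM in control and between 17.6 and 39.8 CPM in *Neuid* KD, with Kcnj8 and Abcc9 at 0 in some libraries. The 10 microglial markers summed to between 14.8 and 22.2 CPM in control and between 13.0 and 21.98 CPM in *Neuid* KD, with Cx3cr1, P2ry12, Tmem119, C1qa, C1qb and Itgam at 0 in some libraries. The 6 oligodendrocyte markers (26.3 to 32.8 CPM in control and 22.7 to 33.2 CPM in *Neuid* KD, 1 lower past the thresholds, Mog, Mag and Mobp at 0 in some libraries) and the 6 ependymal and choroid plexus markers (4.30 to 12.9 CPM in control and 3.38 to 14.6 CPM in *Neuid* KD, Ccdc153 and Tmem212 at 0 in some libraries) overlapped between the groups. Log2 fold changes below 0 were not particular to fibroblast and endothelial markers. They were found for 6 of 8 tested mural and 5 of 5 tested microglial markers. The same held for 3 of 4 tested oligodendrocyte markers and 4 of 5 tested ependymal and choroid plexus markers. Over all tested genes, 44.4% were above 0.

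The genes whose profile over the 12 libraries was most like that of 3 members were sought among the 10714 genes whose mean reached 5 CPM. Likeness was the mean absolute difference between the deviations of 2 genes from their own means, in log2 units, so that genes with a like difference between the groups come out close. Closest to Ahnak were Gpd1 (difference 0.29), Gbp3 (0.30) and S1pr3 (0.31), against a median of 0.90 over all genes compared. Gpd1, an enzyme of glycerol phosphate metabolism, went from 62.1 ± 2.73 to 22.3 ± 2.13 CPM, and S1pr3, a receptor for sphingosine 1-phosphate, from 19.3 ± 2.12 to 5.44 ± 0.931 CPM (SD, n = 6).
Closest to Anxa2 were Smo, the signal transducer of the Hedgehog pathway, Yap1, the coactivator of the Hippo pathway, and the phosphatase Ptpn13, with differences of 0.10 each against a median of 0.31. Smo went from 11.5 ± 0.554 to 18.4 ± 1.59 CPM and Yap1 from 9.46 ± 1.25 to 15.7 ± 0.477 CPM (SD, n = 6). Closest to Anxa5, whose groups overlapped, were Bloc1s4 (difference 0.08), Grin2c (0.08) and Ctsa (0.10), against a median of 0.19.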

How the data were processed

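RNA-seq libraries had been made with a stranded total RNA kit (SMARTer Pico Input). The authors converted reads with bcl2fastq 2.20.2, aligned them to mm10 with STAR 2.5.2b and deposited counts of reads per gene from featureCounts 1.5.1, without normalization. The strand setting is not given in the sources used here. Symbols, positions and exon lengths came from GENCODE M21 (55144 of 55471 genes matched). Counts were filtered with filterByExpr, scaled by TMM and fitted on all 12 libraries with edgeR 4.0.16 (quasi-likelihood test, R 4.3.3) without covariates, with Benjamini-Hochberg adjustment. The fit was tested on simulated counts with the same spread parameter for every gene and no differences in background between libraries. That test therefore says nothing about the effect of background here. Members and lists were chosen with earlier results of these data known. Named were all members, *Neuid*, S100a10 and S100b, up to 4 genes of each list with the largest absolute log2 fold change and any that passed, and the 3 closest profiles to Ahnak, Anxa2 and Anxa5. Of marker lists, sums were given. Nothing in the labels says that replicates came from separate cultures, so p-values measure the spread between these libraries. Alternatives were upper-quartile and DESeq2 size factors, DESeq2 1.42.0, 1 RUVs factor, the background level as a covariate or a split at 100 CPM, no filter, a replicate block, leaving out each library and no fold threshold. Taking off the receptor read density was chosen after seeing the data. Protein sequences were not analysed here. The values of 1 listed gene are not reported here.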

Additional observations from a re-analysis of the deposited data

Results flagged for a closer look

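For 34 named genes, each group of 6 libraries was examined for a library far from the others (Dixon's gap rule), a rule that picks out about 1 group in 20 by chance, and 6 of 68 groups were found. None of them belonged to a member. Cacna1c was at 146 CPM in *Neuid* KD replicate 1, below the 204 to 214 CPM of the other *Neuid* KD libraries. Capn1 was at 7.28 CPM in control replicate 1, above the 5.10 to 5.68 CPM of the other control libraries. Pef1 was at 11.8 CPM in *Neuid* KD replicate 1 against 8.69 to 9.84 CPM in the others. Cacnb4 was at 73.8 CPM in *Neuid* KD replicate 3 against 57.4 to 63.3 CPM. Anxa9 was at 0.936 CPM in *Neuid* KD replicate 3 against 0.628 to 0.737 CPM. S100a1 was at 1.19 CPM in *Neuid* KD replicate 4 against 2.2 to 2.79 CPM.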

How the results depend on the processing

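Anxa2 as the only member called higher and Ahnak as called lower held under each of the 21 alternative fits and without a fold threshold. Over these fits and with the receptor read density taken off, the log2 fold change of Ahnak was between -1.92 and -1.45 and that of Anxa2 between 0.55 and 0.79. The members called lower were 2 (Ahnak and Anxa3) in place of 1 with the DESeq2 Wald test, with 1 RUVs factor, with a covariate for the background level, and in the libraries under 100 CPM of background, and they were 1 to 2 when each library was left out, with 2 only without *Neuid* KD replicate 1. The cause was not tested. With no fold threshold, 5 partner genes were lower in place of 3, Atp11b and Serpini1 being added, and 7 were higher in place of 6, Chmp4b being added. Partner genes called higher were 5 to 7 and called lower 2 to 5 over all alternatives, and S100b, Serpine2, Mfge8, Mertk, Axl and Cav1 were called in every fit. With the replicate number as a replicate block, 1 member was higher (Anxa2), 1 lower (Ahnak, log2 fold change -1.74) and 5 partner genes were higher and 4 lower. Same-numbered libraries did not all deviate together (r from -0.616 to 0.729, over 0.1 in 2 of 6 pairs, with 2 of 6 control libraries closest to their own number). The r was 0.723 for replicate 1 and 0.729 for replicate 3. Their control and *Neuid* KD libraries had like background reads (667 and 616 CPM, 26.7 and 27.1 CPM). It was -0.616 for replicate 4, at 592 and 50.5 CPM. The check does not separate pairing from background, so whether the numbers pair the libraries cannot be told. Over all genes, the number called lower, 155, was 260 with DESeq2, 300 with the background covariate, 240 with the RUVs factor and 269 without *Neuid* KD replicate 1. Depth limits Anxa1, Anxa3, Anxa4 and Anxa11, with at most 58 reads in a library.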
